A study of Mus musculus with 4 samples.

Results

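The genes described here form the signalling axis through which osteoclasts, the multinucleated cells that resorb bone and calcified cartilage, arise from cells of the monocyte and macrophage lineage. The axis holds 10 genes: the ligands Csf1 and Tnfsf11 (RANKL), their receptors Csf1r and Tnfrsf11a (RANK), the decoy receptor Tnfrsf11b (osteoprotegerin), the transcription factor Nfatc1, the fusion proteins Dcstamp and Ocstamp, and the secreted enzymes Acp5 (tartrate-resistant acid phosphatase) and Ctsk (cathepsin K). They were taken by symbol, and all 10 were found, each as 1 of the 32285 features of the files. CSF1 keeps macrophages and osteoclast precursors alive through CSF1R. RANKL, made mostly by stromal, osteogenic and cartilage cells, then acts on RANK on these precursors, osteoprotegerin binds RANKL and holds it away from RANK, and NFATc1 switches on the genes of fusion and resorption. In endochondral bone, cartilage is laid down first and is then invaded and removed by such cells.

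The sections came from Nse-Bmp4 mice on the C57BL/6 background, 6-8 week old, in which a Bmp4 transgene under a neuron-specific enolase promoter drives heterotopic ossification, bone forming in soft tissue after injury. Tibial muscle was taken uninjured (day 0) and at days 1, 3 and 7 after injury, and the injury was made with cardiotoxin, a snake venom protein that destroys muscle fibres. The notes given with the samples say that 3 muscles were mixed for each group, but in a text that otherwise describes single-cell libraries, so the number of animals behind a section is not settled. The transgene is carried at day 0 too, so uninjured and injured sections differ in injury and time and not in genotype. Each day is 1 spatial section on which barcoded spots capture the RNA above them. A spot covers several cells or parts of cells, so spots are small pieces of tissue and not replicates. With 1 section per day no test between days was possible: the 95% intervals below are exact and cover counting error of unique molecular identifiers (UMIs) only, and day, animals and section cannot be told apart.

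The sections held 2107 to 3032 spots and 16777832 to 56113066 UMIs, with the fewest UMIs at day 1, where 19.2% of spots had under 2000. Any pair of sections shared 1539 to 2311 position barcodes, which are printed on every slide and do not mark shared tissue. Adult myofibre genes, the defining markers of the labelled tissue, took 22.6%, 11.8%, 7.30% and 13.3% of UMIs in the sections of days 0, 1, 3 and 7. Levels are given as CPM, the UMIs of a gene per 1000000 UMIs of its section. The summed level of 10 macrophage markers was 403, 1479, 7473 and 1969 CPM on the same days. Their part in the differences between days was not tested, and in such sections fewer cells of a type and less RNA per cell cannot be told apart. Cartilage markers (9 genes) stood between 9.05 and 31.1 CPM until day 3 and at 1550 CPM at day 7, so only the day 7 section held tissue rich in cartilage RNA.

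Promoter sequences of the enzymes Acp5 and Ctsk are shown because both are taken as standard products of an osteoclast, while the regions and days in which each stood highest were not all the same. The windows are the 250 bases before the annotated start (RefSeq, GRCm38.p6, the build of the files), read 5′ to 3′ along each gene's strand. Capitals mark GGAAA or its reverse complement, the core bound by NFAT factors.
Ctsk, chr3:95498960-95499209, plus strand: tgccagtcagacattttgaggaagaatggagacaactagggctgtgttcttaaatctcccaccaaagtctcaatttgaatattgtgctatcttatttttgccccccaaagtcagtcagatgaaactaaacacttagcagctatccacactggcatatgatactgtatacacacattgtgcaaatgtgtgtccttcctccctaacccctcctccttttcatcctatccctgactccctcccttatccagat
Acp5, chr9:22135747-22135996, minus strand: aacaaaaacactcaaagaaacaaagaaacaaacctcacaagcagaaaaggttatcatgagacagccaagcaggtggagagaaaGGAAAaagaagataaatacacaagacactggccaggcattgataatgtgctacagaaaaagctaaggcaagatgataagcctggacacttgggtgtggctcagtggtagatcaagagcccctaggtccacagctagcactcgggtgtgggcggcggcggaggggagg
GGAAA was found once in this Acp5 window and not in the Ctsk window, on either strand, and 55.6% of the 32851 promoter windows of the same length hold it. The AP-1 site TGANTCA, in 6.75% of windows, and the M-box TCATGTG bound by MITF, in 3.25%, were in neither window. RefSeq lists 2 further Acp5 windows, at starts inside the gene, with 1 and 2 GGAAA matches, and the M-box was found in 1 of them.

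More genes of the axis were higher than lower in each injured section. At day 1, 4 of the 10 genes were at least 2-fold higher in CPM than at day 0, where 16.6% of the 17250 features tested were, and 1 was at least 2-fold lower, where 9.93% were. The 4 included Tnfrsf11b, with 14 UMIs at day 1 and 16 at day 0 (2.29-fold, 1.03 to 5.00). At day 3, 6 genes were higher and none lower, against 31.9% and 8.53% of all features, and at day 7, 7 were higher and none lower, against 32.0% and 2.13%. From day 1 to day 3, 4 genes were higher and none lower, against 16.6% and 3.52%, and from day 3 to day 7, 3 were higher and 3 lower, against 16.5% and 11.4%. One of the 3 higher then was Dcstamp, with 4 and 10 UMIs and an interval that reached below 1 (0.967 to 14.6). The median log2 ratio of the members that had more than 3 UMIs in either section was 1.05, 1.82 and 2.09 at days 1, 3 and 7 over day 0, beside 0.19, 0.56 and 0.65 over all features. Scaling by TMM, which sets the bulk of genes level between sections, lowers the log2 ratios over day 0 by 0.21, 0.55 and 0.61 at days 1, 3 and 7. The members did not move together: CSF1 and the receptors were highest at day 3, and Ctsk, RANKL and osteoprotegerin at day 7.

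**Figure D1:**
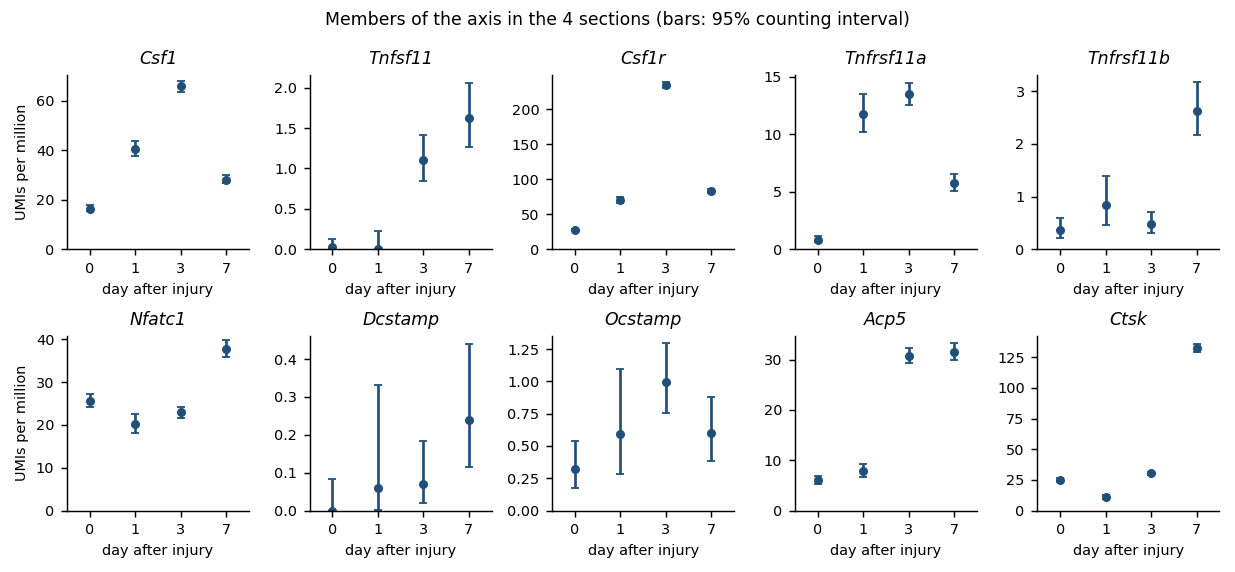
CPM of each of the 10 genes (vertical axis, from 0) in the 4 sections (horizontal axis, day after injury), with points for the section and bars for the 95% counting interval. Csf1, Csf1r, Tnfrsf11a and Ocstamp stand highest at day 3, Ctsk, Tnfrsf11b, Tnfsf11, Dcstamp and Nfatc1 at day 7, and Acp5 is about level between them.

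Csf1 (ENSMUSG00000014599, chr3:107741048-107760469), the growth factor of macrophages, had 723, 683, 3697 and 1180 UMIs at days 0, 1, 3 and 7, or 16.5, 40.7, 65.9 and 28.2 CPM. The day 3 section was the highest, 4.0-fold above day 0 (3.69 to 4.34), and the day 7 section was 1.71-fold above day 0 in CPM (1.56 to 1.88), a log2 ratio of 0.78 that becomes 0.17 under TMM. Its receptor Csf1r (ENSMUSG00000024621), which marks macrophages and their precursors, had 1226, 1183, 13169 and 3469 UMIs, or 27.9, 70.5, 235 and 82.9 CPM. Csf1r was 8.40-fold higher at day 3 than at day 0 (7.92 to 8.91) and then lower at day 7, at 0.353 of its day 3 level (0.340 to 0.367). Receptor and ligand thus shared their peak day, with the larger change in the receptor. Il34, the other ligand of Csf1r, took no part in this peak and stood at 6.70, 7.39, 8.22 and 12.3 CPM.

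Tnfrsf11a (ENSMUSG00000026321, chr1:105780673-105849444), the receptor through which RANKL acts, had 37, 197, 757 and 240 UMIs, or 0.843, 11.7, 13.5 and 5.74 CPM. It was the earliest of the members: at day 1 it was already 13.9-fold above day 0 (9.76 to 20.4), close to its day 3 level. Its ligand Tnfsf11 (ENSMUSG00000022015, chr14:78277446-78308043) came later, with 1, 0, 62 and 68 UMIs in the sections of days 0, 1, 3 and 7. The count of 0 at day 1 allows up to 0.220 CPM by its counting interval, and the day 3 and day 7 levels were 1.10 and 1.63 CPM. Over the 1 UMI of day 0 the day 7 ratio was 71.3, with a counting interval of 12.4 to 2858. In the day 1 section RANK was thus measured and RANKL was not detectable at this depth.

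The decoy receptor Tnfrsf11b (ENSMUSG00000063727, chr15:54250619-54278484), which blocks RANKL, had 16, 14, 27 and 110 UMIs, or 0.365, 0.834, 0.481 and 2.63 CPM. It was 5.46-fold higher at day 7 than at day 3 (3.56 to 8.66), where Tnfsf11 was 1.47-fold higher (1.03 to 2.11). At day 3 there were 230 Tnfsf11 UMIs per 100 Tnfrsf11b UMIs (144 to 375), and at day 7 there were 61.8 (45.0 to 84.4). The ratio of ligand to decoy UMIs was thus lower at day 7 than at day 3, with intervals that did not overlap. At day 0 the count was 1 against 16 and at day 1 it was 0 against 14, and since levels of different genes were not set on a scale per length, only the change of this ratio between sections can be read.

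Nfatc1 (ENSMUSG00000033016), the factor that switches on the resorption genes, passed the 2-fold limit in no comparison. It had 1125, 340, 1287 and 1583 UMIs, or 25.6, 20.3, 22.9 and 37.8 CPM, and its day 7 CPM was 1.48 times that of day 0 (1.37 to 1.59). Under TMM that log2 ratio of 0.56 becomes -0.045, so no direction over day 0 is given. The fusion genes were scarce. Dcstamp (ENSMUSG00000022303, chr15:39745930-39760938) had 0, 1, 4 and 10 UMIs, and Ocstamp (ENSMUSG00000027670, chr2:165395450-165400394) had 14, 10, 56 and 25. Set against the floor of 3 UMIs the day 7 level of Dcstamp was at least 3.5-fold that of day 0, while counting error allows a ratio as low as 2.35. Ocstamp was 3.13-fold higher at day 3 than at day 0 (1.72 to 6.08).

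Acp5 and Ctsk, the enzymes, differed in their course. Acp5 (ENSMUSG00000001348, chr9:22126727-22135746) had 266, 132, 1724 and 1320 UMIs, or 6.06, 7.87, 30.7 and 31.6 CPM. Its largest step between successive sections came from day 1 to day 3, 3.91-fold (3.27 to 4.70), and its day 7 level was 1.03-fold that of day 3 (0.955 to 1.10). Ctsk (ENSMUSG00000028111, chr3:95499210-95509387), a collagen-cutting protease that stromal cells make as well as osteoclasts, had 1098, 190, 1700 and 5551 UMIs, or 25.03, 11.3, 30.3 and 133 CPM. It was the member that was lower at day 1, at 0.452 of day 0 (0.386 to 0.528). From day 1 to day 3 it was 2.68-fold higher (2.30 to 3.12), as Acp5 was higher in the same interval, and from day 3 to day 7 a further 4.38-fold (4.15 to 4.63).

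Of 38 further genes listed for the pathway, 37 had at least 10 UMIs over the sections and 1, Siglec15, had none. In the 3 injured sections, in order of day, 18, 21 and 22 of the 37 were at least 2-fold above day 0 and 4, 3 and 0 at least 2-fold below. The shares of all features in these comparisons are those given for the members. From day 3 to day 7, 7 were higher and 9 lower, beside 16.5% and 11.4% of all features. Co-stimulation genes, which act beside RANK through immune adaptors, were lower in 5 of 6 and higher in 1 of 6: Trem2 went from 195 to 50.7 CPM and Tyrobp from 771 to 116 CPM, while Oscar, the gene that was higher, had 7 and 26 UMIs. Genes of the RANK signal relay were lower in 2 of 8, transcription factors in 1 of 5, and genes that restrain the pathway were higher in 1 of 4 and lower in 1 of 4. Genes of the resorption machinery were higher in 5 of 13 and lower in none, and the other 8 passed the limit in neither direction. These 8 ran from Tcirg1, at 0.523 of its day 3 level (0.499 to 0.549), to Src, at 1.96 (1.73 to 2.23). Among the 5 that were higher was Mmp9, a gelatinase of osteoclasts and neutrophils, which went from 3.67 to 11.9 CPM. Others of the 5 were Mmp14, from 6.81 to 20.2 CPM, and Itgb3, the integrin chain of the sealing zone, from 1.80 to 9.16 CPM. Car2, from 2.73 to 5.88 CPM, and Calcr, from 0.232 to 0.717 CPM, completed the 5. At day 7 they were not above their day 0 levels of 6.22 and 1.16 CPM. Mmp9 had been higher still at day 1, at 18.4 CPM, in the section where the neutrophil markers were highest, at 161 CPM against 1.55 to 55.6 CPM in the others. Calcr, listed here as the calcitonin receptor of mature osteoclasts, had 51, 1, 13 and 30 UMIs, and was thus most frequent in uninjured muscle. That section had 0 Dcstamp and 1 Atp6v0d2 UMI, so its Calcr count is not read as osteoclast RNA. Which cells held it was not tested.

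To ask where in the tissue each member lay, spots with at least 2000 UMIs were ranked by the share of a marker list, and the richest 10% were set against the rest of the same section. In the day 7 section the members were not all enriched in the same spots. The lists named next are not always those with the highest ratio for a member. Csf1r, Tnfrsf11a and Acp5 were 3.36-fold (3.13 to 3.6), 3.18-fold (2.41 to 4.18) and 5.54-fold (4.97 to 6.18) higher in macrophage-rich spots. Tnfsf11, Tnfrsf11b and Ctsk were 4.48-fold (2.60 to 7.55), 4.07-fold (2.66 to 6.12) and 3.46-fold (3.27 to 3.67) higher in spots rich in mesenchymal stromal genes. The lists did not divide the members cleanly, since Ctsk and Tnfsf11 were higher in macrophage-rich spots as well, 2.29-fold (2.16 to 2.43) and 2.01-fold (1.09 to 3.55). Nfatc1 was 2.25-fold higher in stromal-rich spots (2.0 to 2.54) but not in macrophage-rich spots (0.904, 0.777 to 1.05), and Ocstamp was 4.51-fold higher in stromal-rich spots (1.76 to 10.8) on 25 UMIs. Stromal-rich and cartilage-rich spots largely coincided, sharing 212 of 294 spots. Spots rich in osteogenic (bone-forming) genes shared 196 of 294 with the stromal-rich and 223 with the cartilage-rich. None of these groups can thus be read without the others. Col1a1 alone gave 69.4% of the stromal list UMIs at day 7. With Spp1 (osteopontin) off the osteogenic list, osteogenic-rich spots were 5.38-fold higher in Tnfrsf11b (3.53 to 8.08) and 6.80-fold in Ocstamp (2.73 to 16.2). Spots rich in adult myofibre genes were poor in Csf1r, Tnfrsf11a, Acp5 and Ctsk, at 0.279 to 0.479 of the rest, while Nfatc1 was at 0.787 (0.636 to 0.964).

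**Figure D2:**
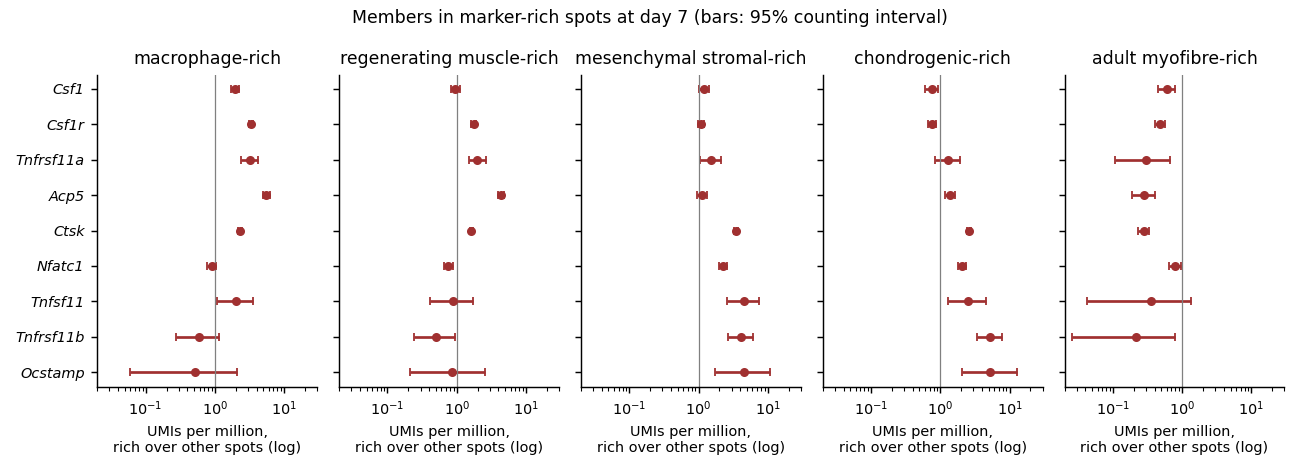
Ratio of CPM in the 10% of day 7 spots richest in a marker list to that in the other spots (horizontal log axis, grey line at 1) for 9 members, with 1 panel per list and bars for the 95% counting interval. Csf1r, Tnfrsf11a and Acp5 lie right of the line in macrophage-rich spots, and Ctsk, Nfatc1, Tnfsf11, Tnfrsf11b and Ocstamp in stromal-rich and chondrogenic-rich spots. Ocstamp had no UMI in myofibre-rich spots and is not drawn there.

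Spots were also grouped into regions by clustering without the members, pathway and marker genes. The day 7 region led by Col10a1, Col9a1 and Col9a3, collagens of cartilage, held 289 spots. Ctsk stood there at 373 CPM (355 to 392), Nfatc1 at 78.1 (69.9 to 87.0), Tnfrsf11b at 8.23 (5.74 to 11.5) and Tnfsf11 at 6.12 (4.0 to 8.96), the highest of the 8 regions for each, though for Tnfsf11 and Tnfrsf11b the interval overlapped that of the next region. Ligand and decoy were thus found in the same region, with 26 and 35 UMIs. Mmp9 was at 36.7 CPM there, 4.05-fold the rest of the section (3.33 to 4.90), and 11 of the 25 Ocstamp UMIs lay there. Without the 2 spots of the region highest in Acp5 and Ctsk, described below, Mmp9 was at 22.7 CPM. Csf1r did not follow: it was at 86.6 CPM there and at 154 CPM in the region led by Cyp2e1, Wfdc21 and Nnat, where the adipocyte markers stood at 2635 CPM.

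Acp5 at day 7 was highest in another of the 8 regions, that led by Myh8, Myh3 and Gpnmb, which joins myosins of newly formed fibres to a gene of phagocytes. Of the 8 regions this one was also highest in macrophage markers, at 3563 CPM. Its 401 spots held 708 of the 1320 Acp5 UMIs, at 69.7 CPM (64.6 to 75.0), against 43.1 in the cartilage region (37.0 to 49.8), and Ctsk was second highest there, at 171 CPM (163 to 179). This difference between the enzymes depends on how finely spots are grouped: at resolution 1 in place of 0.5, a region of 124 spots led by Plekhg4, Lrrc15 and Dkk3 was the highest of those with at least 20 spots for both, with Acp5 at 56.4 CPM (47.6 to 66.3) and Ctsk at 481 (455 to 508). A group of 18 spots left out by that limit, described below, was higher in both, at 468 and 738 CPM. Atp6v0d2 is a subunit of the proton pump used in resorption and in phagocytes. In the Myh8 region at resolution 0.5 it was 11.7-fold higher than in the rest of the section (9.03 to 15.3). That region held 79.0% of the Atp6v0d2 UMIs, and in the cartilage region Atp6v0d2 stood at 5.41 CPM.

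Much of the Acp5 came from very few spots, in which Ctsk was high too. Clustering at the finer resolution set apart 18 day 7 spots, 0.594% of the section and under the limit of 20 spots used for regions, so they are described after their values were seen. They were led by Mmp12, a macrophage elastase, Spp1 (osteopontin) and Atp6v0d2. They held 47.4% of the Atp6v0d2 UMIs of the section, 25.9% of those of Acp5 and 9.71% of those of Ctsk, at 229, 468 and 738 CPM against 4.50, 23.8 and 122 elsewhere, and 4 of the 10 Dcstamp UMIs. Csf1r was at 308 CPM there and Tnfrsf11a at 26.0, against 78.9 and 5.38 elsewhere. Cartilage and bone matrix genes were low in the same spots: Col2a1 stood at 56.2 CPM against 628 elsewhere, and Ibsp, bone sialoprotein, at 16.4 against 220. The macrophage gene Lyz2 was at 9403 CPM against 756 and Myh3 at 720 against 62.2, so macrophage and new-fibre RNA were high where the resorption genes were. Spp1 also sits on the osteogenic marker list, and spots rich in that list were 5.78-fold higher in Acp5 (5.17 to 6.47) and 9.11-fold higher in Atp6v0d2 (7.35 to 11.3). With Spp1 taken off the list the ratios were 1.5 (1.27 to 1.76) and 0.423 (0.229 to 0.720), while that of Ctsk was 2.53 (2.37 to 2.71).

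The 10 day 7 spots with the most Acp5 and Ctsk UMIs together, chosen by those values, held 313 Acp5 and 552 Ctsk UMIs, 23.7% and 9.94% of the section. Of these, 8 belonged to the group of 18 and the other 2 to the cartilage region. The 2 differed from the 8 in several genes, with Ibsp at 92 and 23 UMIs, Lyz2 at 32 and 46 and Gpnmb at 0 and 1. Each of the 8 had at most 2 Ibsp UMIs, and at least 326 of Lyz2 and 47 of Gpnmb. The 2 had 41 and 26 Acp5, 72 and 71 Ctsk, and 38 and 23 Mmp9 UMIs, with 2 Ocstamp UMIs each, and their Spp1 counts were 1 and 3. The spot with the most in the section, from the group of 18, had 51 Acp5, 122 Ctsk, 7 Mmp9, 20 Atp6v0d2, 392 Spp1 and no Ocstamp UMIs. Mmp9 did not set the 2 apart, since another spot among the 8 had 26 Mmp9 UMIs. In the group of 18 Mmp9 stood at 105 CPM (83.2 to 132), against 36.7 in the cartilage region. Without the 10 spots Acp5 was at 47.4 CPM in the Myh8 region and at 27.7 in the cartilage region, Ctsk at 136 and 345, and Mmp9 at 9.64 and 22.7.

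**Figure D3:**
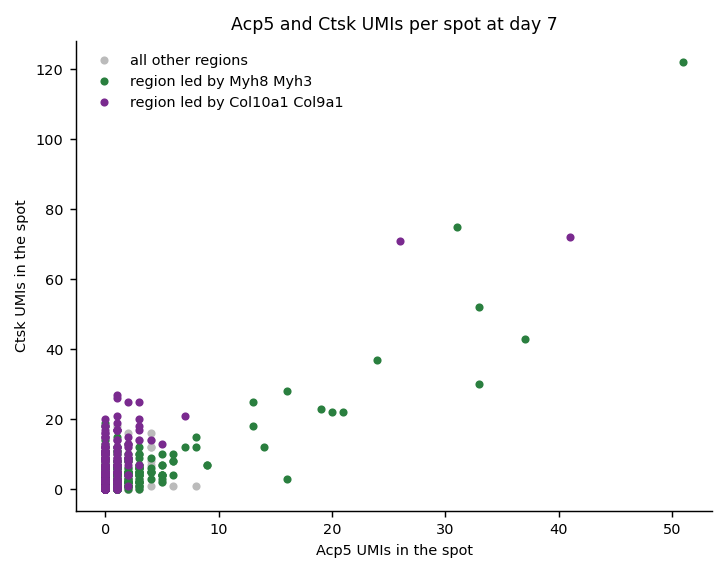
Acp5 UMIs (horizontal) and Ctsk UMIs (vertical) in each day 7 spot, coloured by region: led by Myh8 and Myh3 (green), by Col10a1 and Col9a1 (purple), all others (grey). A few spots with over 20 Acp5 UMIs stand away from the rest, and 2 of them, with 41 and 26 Acp5 UMIs, are in the cartilage region.

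Before day 7 Acp5 lay elsewhere again. At day 0 the 10% of spots richest in adipocyte genes held 176 of 266 Acp5 UMIs, 23.7-fold above the rest (18.3 to 30.9), and a region of 79 spots led by Nnat, Pck1 and Hp, with adipocyte markers at 5552 CPM, stood at 111 CPM (92.8 to 132). Ctsk was hardly higher in the same adipocyte-rich spots, 1.2-fold (0.966 to 1.48), and Csf1r was 1.69-fold higher (1.42 to 2.01). The summed macrophage markers were 2.23-fold higher there, so macrophage RNA moved with Acp5, and its part was not tested. At day 1 adipocyte-rich spots were again 16.9-fold higher in Acp5 (11.6 to 24.9), and there Ctsk was 3.27-fold higher (2.17 to 4.80). At day 3 a region of 122 spots led by Wfdc21, Cfd and Mrap, with adipocyte markers at 6578 CPM, had Acp5 at 110 CPM (92.1 to 131) but held 7.37% of Acp5 UMIs, the most being in the region led by Mest, Myog and Tubb2b, genes of forming muscle, at 53.2 CPM and 39.3%. Macrophage markers stood at 12170 CPM in the Mest region and the regenerating muscle list at 1765 CPM. Over the 31 regions of all sections the genes whose log2 CPM was most like that of Acp5 were Cebpa, Slc25a10 and Bscl2 (Pearson's r of 0.90 for each), the first and last known from fat cells. For Ctsk they were Scarf2, C1qtnf6 and Sh3d19 (r of 0.95 for each), and the r between Acp5 and Ctsk was 0.55. The regions of a section share a library and differ in depth, so these values describe patterns only.

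**Figure D4:**
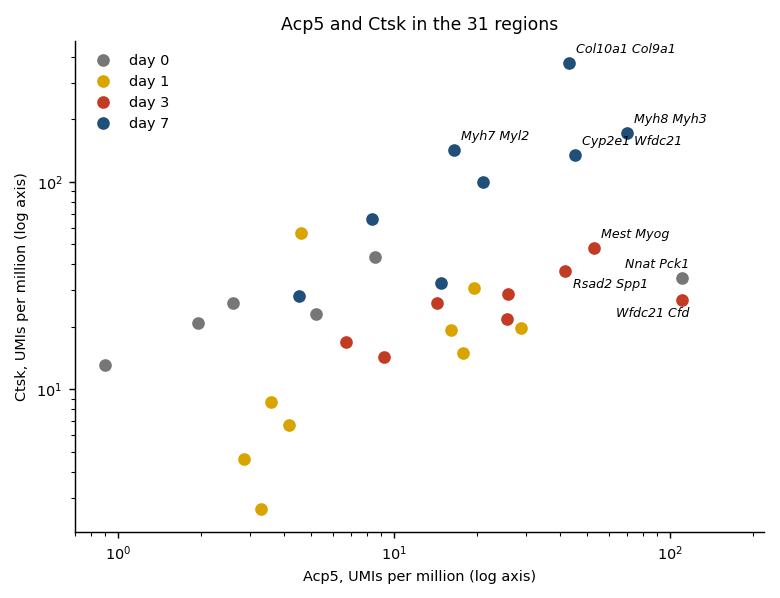
Acp5 CPM (horizontal, log axis) against Ctsk CPM (vertical, log axis) in the 31 regions of the 4 sections, coloured by day, with leading genes named for the regions high in either. The adipocyte-rich regions of days 0 and 3 lie far right at 111 and 110 CPM Acp5 with 34.5 and 27.0 CPM Ctsk, and the day 7 cartilage region stands at the top.

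Csf1 and Tnfrsf11a were high at days 1 and 3 in the region richest in macrophage markers, but Csf1 was not confined to it. At day 3 the region led by Rsad2, Spp1 and Cxcl10, which joins interferon-induced genes to osteopontin and had the macrophage markers at 14684 CPM, held 389 spots with Csf1 at 144 CPM (136 to 152), Tnfrsf11a at 36.8 (32.8 to 41.2) and 57.9% of the Atp6v0d2 UMIs, at 41.9 CPM. Acp5 was 1.45-fold the rest there (1.29 to 1.64), so the proton pump subunit and the phosphatase were not placed alike at day 3. Csf1 in the adipocyte-rich region of day 3 was at 103 CPM (84.9 to 123), with macrophage markers at 4451 CPM. In the Mest region it was at 79.8 CPM (74.9 to 84.8), with macrophage markers at 12170 CPM. At day 1 the region led by Slfn4, Oas2 and Retnla had Csf1 at 84.7 CPM (72.8 to 98.0) and Tnfrsf11a at 37.4 (29.7 to 46.6), with macrophage markers at 3942 CPM. Csf1 was also at 66.9 CPM (42.8 to 99.5) in the region led by Cytl1, P2rx1 and Actg2. It was at 62.1 CPM (53.6 to 71.5) in that led by Myog, Gadd45a and Tnfrsf23. Macrophage markers stood at 967 and 907 CPM in these regions. A region led by Lars2, Gm42418 and Igha had Tnfrsf11a at 64.5 CPM (39.4 to 99.6), but on 20 UMIs and with a median of 811 UMIs per spot. By day 7 Csf1 was highest in the adipocyte-rich region, at 65.1 CPM (54.5 to 77.2), and in the region led by Mt2, Mt1 and Ccl2, at 62.5 (53.5 to 72.5), intervals that overlap. In the cartilage region, which held 26 of the 68 RANKL UMIs, Csf1 stood at 29.6 CPM. The genes most like Csf1r over regions were Unc93b1, Pld4 and C1qb (r of 0.98, 0.97 and 0.97), those most like Tnfrsf11a Lcp1, Slfn2 and Nckap1l (0.95, 0.94 and 0.94), leukocyte genes in the main, those most like Csf1 Ifitm3, Cfp and Ly6e (0.91, 0.90 and 0.89), and those most like Nfatc1 Yme1l1, Lrp6 and Zfp260 (0.87, 0.86 and 0.84).

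The share of spots with a member was compared after each spot was thinned to 2000 UMIs, which left out 17, 513, 9 and 84 spots at days 0, 1, 3 and 7. Csf1r was seen in 4.93%, 12.9%, 29.0% and 12.6% of spots and Ctsk in 4.87%, 2.45%, 5.21% and 16.9%. In the 25% of spots richest in myofibre genes, which stand for background, the shares were 3.40%, 7.83%, 11.4% and 8.97% for Csf1r and 3.46%, 0.911%, 2.61% and 7.56% for Ctsk, so that background moved between days as well. Unthinned, Csf1r was in 33.8%, 30.3%, 76.1% and 46.9% of spots and Ctsk in 34.2%, 6.11%, 33.9% and 51.8%. Tnfsf11 was in 0.169% of thinned spots at day 3, against 0.0199% in the myofibre-rich ones, and in 0.327% at day 7, against 0.326%. These shares rest on 5.1 and 9.65 spots on average over the draws. That is too few to tell either share from background, and neither is read as above it. Without thinning, the day 7 Tnfsf11 UMIs were unevenly placed, the cartilage region being 5.47-fold above the rest of the section (3.22 to 9.14).

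Pairs of the axis were then counted in single thinned spots. Csf1 and Csf1r were found together in 121 of 3020 thinned spots at day 3 on average over the draws, 1.26 times the product of their shares (1.06 to 1.51), but within 5 groups of spots alike in macrophage share the ratio was 1.00. Tnfsf11 and Tnfrsf11a, RANKL and its receptor, were found together in fewer than 10 thinned spots on each day, which allows no ratio. Acp5 and Ctsk met in 31.2 spots at day 7, 1.69 times the product (1.14 to 2.38), and in 1.38 times within the macrophage groups. At day 3 they met in fewer than 10.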

How the data were processed

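The authors deposited, for each of 4 sections of fresh frozen tibial muscle, a matrix of raw UMI counts per gene and tissue spot written by Space Ranger (version 1.2.0 per the file headers) on mm10. Nothing in these counts was normalized. The genes and gene lists were chosen with earlier results of these data known. Counts were summed per section and divided by the section total (CPM). Ratios carry exact conditional binomial intervals and levels exact Poisson intervals, both at 95% and for counting error only. A feature with at least 10 UMIs over the sections was called at 2-fold; counts under 3 UMIs were entered at 3, and no call was made where both sections had 3 or fewer or where the raised count was the higher. Spots were thinned in 20 draws. Regions came from Scanpy 1.11.5 and leidenalg 0.10.2 (2000 variable genes, 30 components, 15 neighbours, resolution 0.5), leaving out regions of under 20 spots. No doublet caller was run on spots. The genes named are the members, listed pathway and marker genes, for members with at least 200 UMIs the 3 genes most alike over regions among genes with at least 500 UMIs (log2 of CPM plus 1), and the 3 genes of highest fold in a region at 50 CPM or more. Groups of spots picked by Acp5 and Ctsk, and the 18-spot group, were added after values were seen. Alternatives used edgeR 4.0.16 (TMM) and DESeq2 1.42.0 scaling factors, other depths, folds, minimums and resolutions. The calls and intervals were tested on simulated data.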

Additional observations from a re-analysis of the deposited data

How the results depend on the processing

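With 1 section per day no replicate could be left out, and no test was run. No paired analysis was possible because each day holds 1 sample. TMM scaling moved all features by -0.21, -0.55 and -0.61 (log2) at days 1, 3 and 7 over day 0, by -0.34 at day 3 over day 1 and by -0.06 at day 7 over day 3, and no called member changed direction under another scaling. Of the 50 member ratios 7 changed sign under TMM, none of them called: Ctsk, Tnfrsf11b and Dcstamp at day 3 over day 0, Nfatc1 at day 7 over day 0, Nfatc1 and Tnfrsf11a at day 3 over day 1, and Acp5 at day 7 over day 3. Of the counts of members, the 4 higher at day 1 over day 0 became 1 and the 1 lower became 0 at 3-fold, the 3 lower at day 7 over day 3 became 0 at 3-fold, and at day 3 over day 1 the 0 lower became 1 under TMM, under DESeq2 factors and at 1.5-fold. Other counts shifted too. Under TMM, Tnfrsf11b at day 1 and Csf1r at day 7, both over day 0, fell under 2-fold (log2 ratios 0.987 and 0.963). Csf1r at day 7 over day 0 (2.97) and Ctsk at day 3 over day 1 (2.68) did not reach 3-fold. The ratio of spots with both Csf1 and Csf1r at day 3 became 1.00 within 5 groups alike in macrophage share. With mitochondrial, haemoglobin and myofibre genes out of the total, log2 ratios turned to -0.0193 for Nfatc1 in osteogenic-rich spots at day 3, -0.0933 for Csf1 in stromal-rich spots at day 7 and -0.00914 for Csf1r in osteogenic-rich spots at day 7, and with the top 25% of spots to -0.0313 for Csf1 in tendon-rich spots at day 3. With the osteogenic list without Spp1, an alternative chosen after seeing the data, those of Csf1r and Atp6v0d2 at day 7 turned to -0.504 and -1.24. At resolution 1 the highest Acp5 level at day 7 among regions of at least 20 spots was 56.4 CPM, in a region led by Plekhg4, Lrrc15 and Dkk3 that also held the highest Ctsk level, 481 CPM. The causes were not tested. Depth limits Dcstamp, Tnfsf11 and Ocstamp most.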
